A study of Mus musculus with 16 samples.

Results

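Genes of the inducible transcription factor families AP-1, EGR, KLF and small MAF were followed in mouse bone marrow-derived macrophages given LPS, SR9009 or both. They were chosen by name from the deposited gene table: Fos, Fosl2, Jun, Junb, Egr1, Egr2, Klf2, Klf4, Klf6 and Maff, 10 of the 56748 genes listed. All 10 passed the filter on low counts, as 13438 genes did in all, and each carried the biotype protein coding. Macrophages were grown from bone marrow of 4 wild-type male C57BL6 mice in medium with L929 cell supernatant, and each mouse gave 1 library to each of 4 groups of 4. The SR9009 and LPS group received 10 µM SR9009 for 16 hours and then 100 ng/mL LPS for 6 hours. The LPS group received 100 ng/mL LPS for 6 hours, the SR9009 group 10 µM SR9009 for 16 hours and the DMSO group the vehicle. LPS is lipopolysaccharide, a bacterial cell wall component sensed by Toll-like receptor 4, and SR9009 is a man-made ligand that activates REV-ERBα and REV-ERBβ, transcriptional repressors of the circadian clock. For the LPS group the labels mention no vehicle, so whether these cells had DMSO overnight is not stated, nor is whether SR9009 was present during LPS.

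AP-1 is a dimer of a Jun protein with a Fos, another Jun or an ATF family protein, and it binds short palindromic sites in promoters and enhancers. EGR proteins are zinc finger factors whose genes, like Fos and Junb, belong to the immediate early genes, which are switched on within minutes of a stimulus without new protein synthesis and usually return quickly. KLF proteins are zinc finger factors that bind GC-rich and CACCC sequences. In macrophages, Klf2 is known to restrain inflammatory activation, Klf6 to favour it, and Klf4 to take part in alternative activation. Maff is a small MAF protein, which lacks a transactivation domain and works as a partner of factors such as NRF2.

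The libraries held 12616442 to 24214863 counts and 13298 to 18947 genes with a count. The lowest number of genes came from the SR9009 library of mouse 1, against 16419 or more in each of the other 15. That library also stood apart among the members: Junb was at 2.93 CPM (counts scaled to the size of the library), against 77.2 to 101 in the other SR9009 libraries, and Jun at 15.9 against 56.0 to 104. Values that it moved most are given with and without it. The 8 macrophage markers were all detected, with summed levels of 10254 to 10486 CPM in SR9009 and LPS libraries, 10338 to 11259 in LPS libraries, 5403 to 8576 in SR9009 libraries and 6765 to 10677 in DMSO libraries. Neutrophil markers summed to 13.4 to 16.7, 13.9 to 19.9, 17.2 to 51.6 and 10.6 to 17.9 CPM in the same order of groups, with Ly6g at 0 in every library, and the sums of fibroblast and erythroid markers reached at most 1.50 and 0.0713 CPM. What part these levels have in the results below was not tested. In RNA from whole cultures, fewer cells of a type and less RNA per cell cannot be told apart.

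Per gene length, Klf6 and Junb had the highest mean levels of the members in every group, and the EGR genes and Maff were the scarcest in DMSO cells. On the deposited FPKM scale (fragments scaled to gene length and library size), Junb averaged 142 ± 44.8 in SR9009 and LPS cells, 263 ± 31.6 in LPS cells, 28.5 ± 18.6 in SR9009 cells and 44.4 ± 6.59 in DMSO cells (SD, n = 4 each). Klf6 averaged 115 ± 26.8, 214 ± 8.00, 67.1 ± 29.8 and 50.7 ± 3.81 FPKM in the same groups. Junb and Klf6 lay within 1 SD of each other in SR9009 and LPS cells and in DMSO cells, so their order there is not separated by the spread. In SR9009 cells Junb was not separated from Jun (20.0 ± 11.7 FPKM) either, and averaged 37.6 ± 5.20 against 24.9 ± 7.54 FPKM for Jun over the 3 libraries other than that of mouse 1. Jun (18.4 ± 2.43), Klf2 (17.8 ± 3.98) and Fos (17.2 ± 1.58) followed in DMSO cells at levels that did not differ beyond their spread. Klf4 (5.32 ± 0.382) and Fosl2 (5.14 ± 1.05) came next and were likewise not separated. Egr2 (0.581 ± 0.249), Maff (0.462 ± 0.268) and Egr1 (0.332 ± 0.229) were the lowest in DMSO cells. In LPS cells Maff stood at 3.87 ± 2.10 FPKM, above Klf4 at 3.15 ± 2.88, Egr1 at 1.29 ± 0.432 and Egr2 at 0.536 ± 0.364, with the spreads of Maff and Klf4 overlapping.

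**Figure D1:**
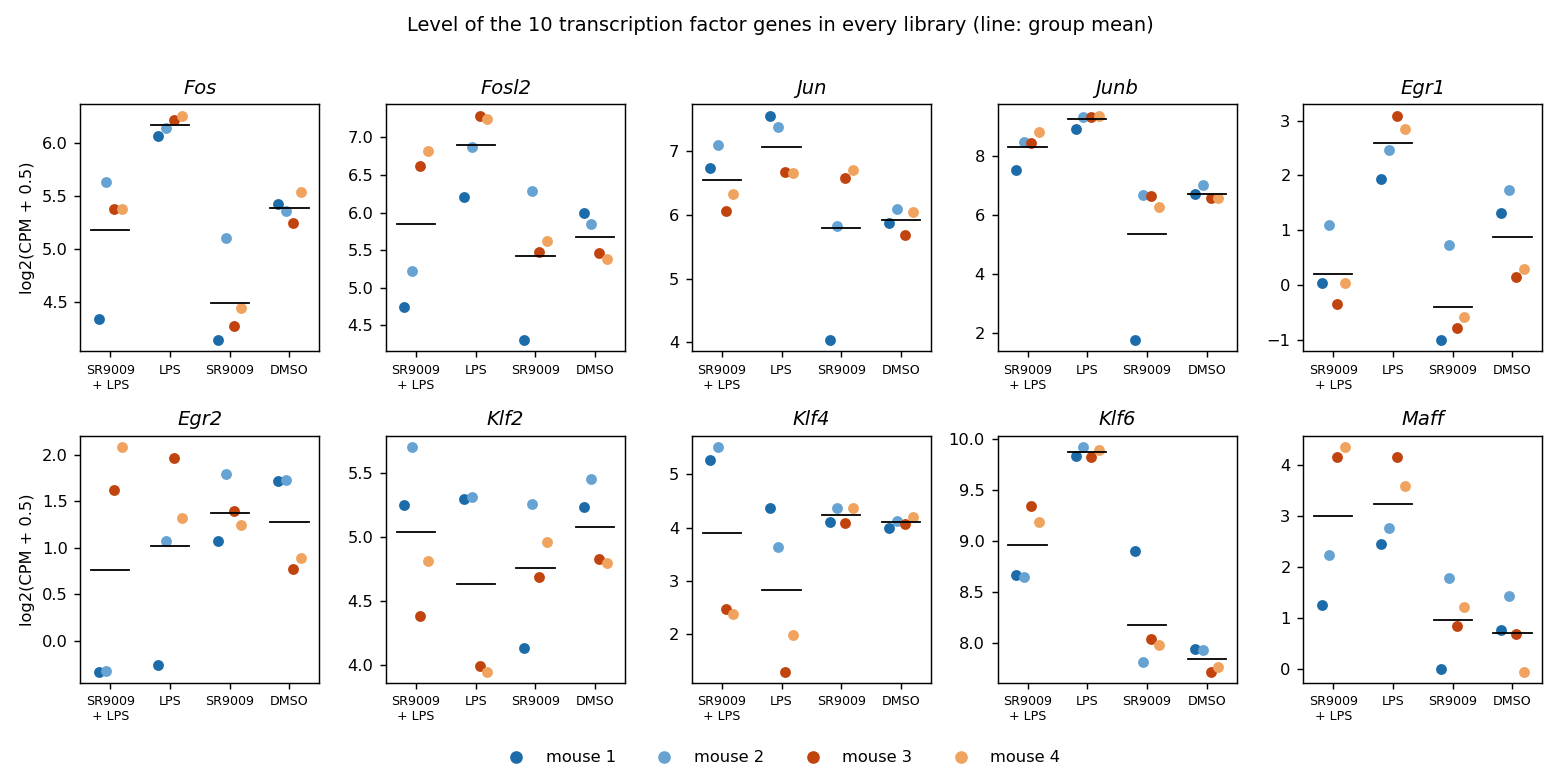
Level of each of the 10 members in every library, as log2(CPM + 0.5), by group (SR9009 and LPS, LPS, SR9009, DMSO), with 1 point per mouse, coloured by mouse, and a line at the group mean. The LPS libraries lie above all DMSO libraries for Junb, Klf6, Maff, Fos, Fosl2, Jun and Egr1, and the SR9009 library of mouse 1 lies far below the others for Junb.

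The first comparison asks what 6 hours of LPS did to these genes. In all, 6 members rose in LPS cells relative to DMSO cells (Fos, Fosl2, Jun, Junb, Klf6 and Maff) and none fell, with edgeR's quasi-likelihood test at an adjusted p under 0.05. Over all tested genes 19.4% were called higher and 20.4% lower, 39.8% in all. The median log2 fold change was 1.24 over the members and -0.08 over all tested genes. The LPS and DMSO libraries did not overlap for 7 members, all higher with LPS, against 27.0% of tested genes not overlapping and higher and 30.5% not overlapping and lower.

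Klf6 and Junb had the firmest increases. Klf6 (chr13:5911481-5920393, GRCm39, plus strand) had 915, 970.5, 908 and 954 CPM in the LPS libraries of mice 1 to 4, against 245, 244, 210.4 and 217 CPM in their DMSO libraries. All 4 LPS libraries lay far above all 4 DMSO libraries, with little spread within either group. The log2 fold change was 2.03 (SE 0.24, adjusted p = 8.73e-06), an increase of 4.09-fold. Junb (chr8:85701113-85705347, GRCm39, minus strand), which encodes a Jun protein that activates transcription less strongly than c-Jun, had 482, 641, 636 and 654 CPM in LPS libraries, against 105, 127, 94.3 and 93.9 CPM in DMSO libraries. The LPS library of mouse 1 was the lowest of its group and still well above every DMSO library. The log2 fold change was 2.52 (SE 0.63, adjusted p = 0.00447), 5.74-fold. Both calls held under all 31 other settings tried. The last 351 bases of Junb overlap Prdx2 on the opposite strand, which had 861 to 4119 counts per library; the strand setting of the counting is not given, so reads of the pair cannot be told apart there.

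Maff showed the steepest rise from a low base. Maff (chr15:79230821-79243276, GRCm39, plus strand) had 4.99, 6.32, 17.3 and 11.6 CPM in LPS libraries, against 1.18, 2.19, 1.10 and 0.460 CPM in DMSO libraries. The groups did not overlap, and the libraries of mice 3 and 4 were the highest with LPS and the lowest with DMSO. The log2 fold change was 3.03 (SE 0.74, adjusted p = 0.00379), 8.16-fold. Leaving out mouse 3 from all groups ended the call (adjusted p = 0.0545), and 30 of 31 other settings kept it. An antisense lncRNA, ENSMUSG00000121075, overlaps 889 bases of Maff and had 0 to 21 counts per library.

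The Fos-type members and Jun rose less. Fos (chr12:85520664-85524047, GRCm39, plus strand), which pairs with Jun proteins and cannot form a stable dimer with itself, had 66.6, 70.0, 74.1 and 76.0 CPM in LPS libraries, against 42.6, 40.5, 37.4 and 46.0 CPM in DMSO libraries. Every LPS library was above every DMSO library, and the log2 fold change was 0.78 (SE 0.26, adjusted p = 0.0234). Fosl2 (chr5:32293145-32315186, GRCm39, plus strand), the gene of the Fos relative FRA-2, had 73.2, 117, 156 and 151 CPM in LPS libraries, against 63.4, 56.9, 43.7 and 41.2 CPM in DMSO libraries. The gap was narrow in mouse 1 and wide in mice 3 and 4, and the log2 fold change was 1.28 (SE 0.46, adjusted p = 0.0351). Jun (chr4:94937271-94940459, GRCm39, minus strand), which encodes c-Jun, had 188, 166, 101 and 100.3 CPM in LPS libraries, against 57.8, 67.4, 50.6 and 65.6 CPM in DMSO libraries. For Jun the split of the mice under LPS was the reverse of that for Fosl2, with mice 1 and 2 above mice 3 and 4. The log2 fold change of Jun was 1.20 (SE 0.42, adjusted p = 0.0332). The antisense lncRNA Junos overlaps 689 bases of Jun and had 15 to 278 counts per library.

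These 3 calls were the least stable. The Fos call ended without mouse 2, 3 or 4, without the DMSO library of mouse 2 or 3 and without the LPS library of mouse 3 or 4 (adjusted p = 0.0505 to 0.145). The Fosl2 call ended without mouse 2, 3 or 4 or any single DMSO or LPS library of those mice (adjusted p = 0.0585 to 0.196), and with mouse number as a block (log2 fold change 1.12, adjusted p = 0.0505); the Jun call ended without mouse 2, 3 or 4, any DMSO library, or the LPS library of mouse 1 or 2 (adjusted p = 0.0558 to 0.142). Upper-quartile scaling, which moved the median of all genes to -0.28, also ended the 3 calls (adjusted p = 0.0710 for Fos, 0.0606 for Fosl2 and 0.0648 for Jun). With no filter on low counts Fos (adjusted p = 0.0737) and Fosl2 (0.0506) were not called, and with limma-voom Jun was not (0.0536). Leaving out the SR9009 library of mouse 1, which is in neither group, kept the 3 calls. The adjusted p with edgeR's test was then 0.0104 for Fos, 0.0142 for Fosl2 and 0.00181 for Jun, while 7835 genes were called in all, against 5352 with it.

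The EGR members were low in every group. Egr1 (chr18:34992876-34998037, GRCm39, plus strand) had 3.33, 5.03, 8.01 and 6.71 CPM in LPS libraries, against 2.00, 2.81, 0.602 and 0.723 CPM in DMSO libraries. The groups did not overlap, but the log2 fold change of 1.92 (SE 0.78) had an adjusted p of 0.0607, and with mouse number as a block it was 2.27 with an adjusted p of 0.0138. DESeq2 (adjusted p = 0.0225), limma-voom (0.00836), log2 FPKM with a pseudocount of 1 (0.000481) or 0.1 (0.00591) and the compared groups alone (0.00831) also put it past the threshold. So did leaving out mouse 1 or 2, the DMSO library of mouse 2, or the SR9009 library of mouse 1 or 2 (adjusted p = 0.0157 to 0.0484). Egr2 (chr10:67371305-67378018, GRCm39, plus strand), known for roles in monocyte differentiation and T cell tolerance, had 0.333, 1.60, 3.39 and 2.00 CPM in LPS libraries, against 2.78, 2.81, 1.20 and 1.35 CPM in DMSO libraries. The groups overlapped, with LPS below DMSO in mice 1 and 2 and above it in mice 3 and 4, and the log2 fold change was -0.13 (SE 0.71, adjusted p = 0.899).

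Klf2 and Klf4 did not pass the test and split by mouse. Klf2 (chr8:73072877-73075500, GRCm39, plus strand) had 38.7, 39.1, 15.4 and 15.0 CPM in LPS libraries, against 37.0, 43.1, 27.9 and 27.3 CPM in DMSO libraries, with a log2 fold change of -0.32 (SE 0.37, adjusted p = 0.521). Klf4 (chr4:55527143-55532466, GRCm39, minus strand) had 20.3, 11.9, 1.97 and 3.50 CPM in LPS libraries, against 15.4, 17.1, 16.2 and 18.0 CPM in DMSO libraries. The DMSO libraries agreed closely for Klf4, while the LPS libraries of mice 3 and 4 lay several-fold below those of mice 1 and 2. The log2 fold change was -0.83 (SE 0.70, adjusted p = 0.371), and the log2 ratios of CPM + 0.5 within mice 1 to 4 were 0.39, -0.50, -2.76 and -2.21.

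**Figure D2:**
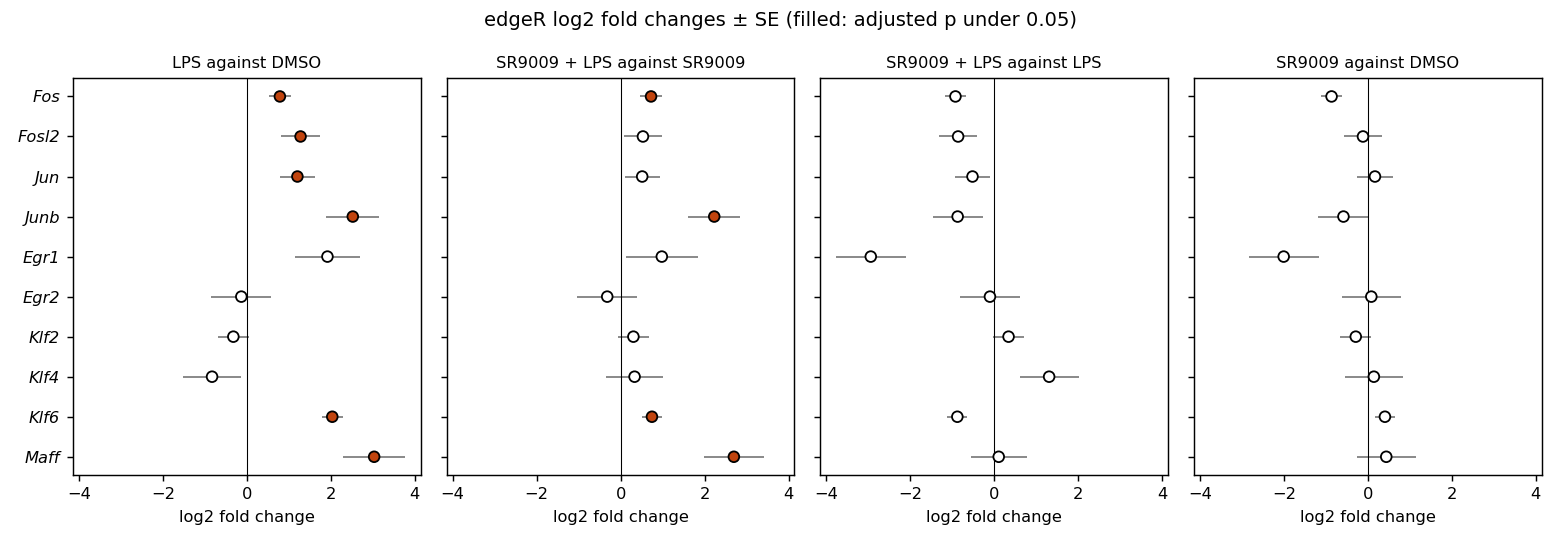
Log2 fold change of each member with its SE in 4 comparisons (LPS against DMSO, SR9009 and LPS against SR9009, SR9009 and LPS against LPS, SR9009 against DMSO), with filled points for an adjusted p under 0.05. In LPS versus DMSO, 6 members are past the threshold and higher, and in SR9009 and LPS versus LPS the points of Fos, Egr1 and Klf6 lie below 0 without passing it.

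LPS also changed relatives of the members outside the chosen 10, beside 19.4% of all tested genes called higher and 20.4% lower. Of 10 other AP-1 genes, 8 were tested, 4 rose and 0 fell (5 at an unadjusted p under 0.05, 5 called with DESeq2 and 4 with limma-voom), with a median log2 fold change of 1.41. Atf3, an LPS-inducible AP-1 partner that represses cytokine genes, averaged 714 ± 226 CPM in LPS cells and 84.6 ± 15.1 CPM in DMSO cells (log2 fold change 3.08, SE 0.25, adjusted p = 2.08e-07). Batf2 (101 ± 14.5 CPM with LPS, 4.32 ± 2.10 with DMSO) and Batf (114 ± 26.1 and 4.09 ± 0.459), basic leucine zipper partners of Jun proteins, rose by 4.54 and 4.80 on the log2 scale. Jdp2, a Jun dimerization partner, rose by 1.56 (adjusted p = 0.0153). Of the EGR and NAB list, 3 of 4 were tested and the EGR corepressor genes Nab1 (1.53, adjusted p = 0.00126) and Nab2 (2.38, adjusted p = 0.00166) rose. Of 14 other KLF genes, 8 were tested, 2 rose and 3 fell, with a median of 0.31. Klf7 rose by 2.65 and Klf3 by 1.69 on the log2 scale, while Klf9 (1.22 ± 0.570 CPM with LPS, 14.3 ± 4.72 with DMSO) fell by 3.56 and Klf10 fell by 0.69. Of 6 other MAF genes, 5 were tested and Maf (0.89, adjusted p = 0.0165) and Mafk (1.07, adjusted p = 0.0316) rose.

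Of 14 other immediate early genes, 13 were in the table by the symbols used and 12 were tested; 5 rose and 0 fell, with a median log2 fold change of 0.97. Zfp36, which encodes the mRNA-destabilising protein tristetraprolin, averaged 1181 ± 127 CPM in LPS cells and 73.9 ± 14.4 CPM in DMSO cells (log2 fold change 4.00, adjusted p = 1.47e-06), and Ier3 rose by 3.20 (adjusted p = 0.00536). Of 20 genes upstream of AP-1 and EGR (MAP kinases and the factors they act on), all were tested, 6 rose and 5 fell, with a median of -0.39. The MAP kinase kinase genes of the list did not share 1 direction: Map2k1 rose by 1.92 and Map2k4 by 1.25, while Map2k6 fell by 3.23 on the log2 scale. The shares called in the list, 6 and 5 of 20, stand beside 19.4% and 20.4% of all tested genes. Map3k8, whose kinase couples Toll-like receptors to ERK, rose by 2.11, and Elk3, a ternary complex factor of the ETS family, fell by 1.51. Of the related genes named for this comparison, calls were lost when mice or libraries were left out for Jdp2 (mouse 2, 3 or 4, or the LPS library of mouse 4; adjusted p up to 0.0889), Klf10 (mouse 2; 0.0543), Maf (mouse 2, 3 or 4, or the LPS library of mouse 1; up to 0.0755) and Ier3 (mouse 3 or 4; up to 0.0587). Mafk lost its call without mouse 2, 3 or 4, the DMSO library of mouse 1, 3 or 4, or the LPS library of mouse 1, 2 or 4 (up to 0.106). The others kept theirs in all 20 such fits.

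Promoter windows are shown for Fos, Junb, Klf6 and Maff because these 4 members were called in both comparisons of LPS with no LPS. Each window is 300 bases of RefSeq sequence in build GRCm38.p6, from 250 bases before the annotated start to 50 after it, read 5′ to 3′ on the gene's strand. Capitals mark matches, on either strand, to the motifs searched: TGACGTCA (the cyclic AMP response element, CRE), TGANTCA (AP-1 site), GCGNGGGCG (EGR site), CCNCACCC (KLF site), TATAAA, and by name the CArG box bound by SRF, the NF-kB site and the RORE bound by REV-ERB. The windows are chr12:85473640-85473939 (plus strand) for Fos, chr8:84978699-84978998 (minus) for Junb, chr13:5861239-5861538 (plus) for Klf6 and chr15:79347270-79347569 (plus) for Maff, which has 3 annotated starts, this being the one with a CRE match.
Fos: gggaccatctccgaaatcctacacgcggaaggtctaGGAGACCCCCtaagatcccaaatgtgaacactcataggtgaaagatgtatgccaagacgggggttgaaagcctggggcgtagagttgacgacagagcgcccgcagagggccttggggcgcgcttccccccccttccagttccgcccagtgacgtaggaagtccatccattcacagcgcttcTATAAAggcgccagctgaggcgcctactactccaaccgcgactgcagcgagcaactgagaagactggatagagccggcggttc
Junb: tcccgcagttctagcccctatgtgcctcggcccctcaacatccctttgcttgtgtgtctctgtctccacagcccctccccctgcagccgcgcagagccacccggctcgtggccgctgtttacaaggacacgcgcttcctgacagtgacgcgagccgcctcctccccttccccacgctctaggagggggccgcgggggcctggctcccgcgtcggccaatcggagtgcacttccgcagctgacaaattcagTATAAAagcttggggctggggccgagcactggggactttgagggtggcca
Klf6: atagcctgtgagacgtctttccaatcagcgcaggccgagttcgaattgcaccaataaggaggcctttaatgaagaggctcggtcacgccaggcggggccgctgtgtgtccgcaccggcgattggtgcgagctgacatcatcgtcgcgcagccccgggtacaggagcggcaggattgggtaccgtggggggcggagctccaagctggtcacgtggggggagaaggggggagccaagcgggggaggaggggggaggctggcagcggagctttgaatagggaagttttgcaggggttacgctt
Maff: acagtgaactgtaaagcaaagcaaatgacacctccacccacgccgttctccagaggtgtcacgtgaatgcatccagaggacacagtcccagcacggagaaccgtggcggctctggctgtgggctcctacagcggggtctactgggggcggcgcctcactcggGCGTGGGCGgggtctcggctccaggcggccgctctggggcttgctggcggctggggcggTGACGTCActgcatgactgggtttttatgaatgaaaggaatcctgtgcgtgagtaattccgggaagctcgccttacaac
In the Fos window, an NF-kB match lies 214 bases before the start and TATAAA 33 bases before it. The Junb window holds TATAAA at the annotated start, the Klf6 window holds none of the motifs, and the Maff window holds an EGR match 88 bases and a CRE match 29 bases before the start. Of 32851 windows of the same length in the table, 8.46% held the NF-kB motif, 13.6% TATAAA, 5.55% the EGR motif, 1.79% the CRE, 16.6% the KLF motif, 7.81% TGANTCA, 1.63% the CArG box and 0.384% the RORE. The Maff window was picked among 3 for its CRE match, so that match cannot be weighed against the 1.79%. Of the 10 members, 9 had an entry (all but Egr1), and none of their windows held TGANTCA or the RORE in these letters. Klf4 had 2 EGR matches, 211 and 194 bases before its start, and Klf2 and Fosl2 had 1 each, 199 and 79 bases before. NF-kB matches also lay in windows of Fosl2, Egr2 and another Maff start, CArG boxes in windows of Egr2, and KLF matches in windows of Jun and yet another Maff start. A match is a run of letters and not a measured binding site.

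The second comparison asks whether SR9009 given before LPS altered these genes in LPS-treated cells. Fos, Egr1 and Klf6 were lower in SR9009 and LPS cells than in LPS cells in all 4 mice, but with edgeR's test 0 of the 10 members passed the threshold. At an unadjusted p under 0.05 there were 3, all lower (Fos, Egr1 and Klf6); DESeq2 called 3 and limma-voom 1, Egr1. Over all tested genes 1.79% were called, 1.06% higher and 0.737% lower. The median log2 fold change was -0.69 over the members and 0.02 over all genes. The groups did not overlap for 4 members, all lower with SR9009 (Fos, Junb, Egr1 and Klf6), against 7.78% of tested genes not overlapping and lower and 6.66% not overlapping and higher.

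Egr1 had 0.529, 1.65, 0.285 and 0.533 CPM in SR9009 and LPS libraries, against 3.33, 5.03, 8.01 and 6.71 CPM in LPS libraries. Every SR9009 and LPS library was below every LPS library; these levels rest on 51 counts in all with SR9009 and LPS and 330 with LPS. The log2 fold change was -2.94 (SE 0.83, adjusted p = 0.0888). Fos had 19.8, 49.2, 41.0 and 41.2 CPM in SR9009 and LPS libraries, against 66.6, 70.0, 74.1 and 76.0 CPM in LPS libraries, with no overlap and mouse 1 the lowest. Its log2 fold change was -0.92 (SE 0.26, adjusted p = 0.0879).

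Klf6 had 406, 401, 651 and 581 CPM in SR9009 and LPS libraries, against 915, 970.5, 908 and 954 CPM in LPS libraries. The LPS libraries were tightly grouped, and mice 1 and 2 were the lowest with SR9009. The log2 fold change was -0.88 (SE 0.24, adjusted p = 0.0754). Junb had 185, 349, 344 and 442 CPM in SR9009 and LPS libraries, against 482, 641, 636 and 654 CPM in LPS libraries. Although the groups did not overlap, the log2 fold change of -0.87 (SE 0.60) had an adjusted p of 0.588.

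These values moved with a library that is in neither group. All 16 libraries share 1 estimate of the spread per gene, and when the SR9009 library of mouse 1 was left out, 4 members fell: Fos (log2 fold change -0.89, adjusted p = 0.0233), Junb (-0.84, adjusted p = 0.0188), Egr1 (-2.91, adjusted p = 0.0198) and Klf6 (-0.85, adjusted p = 0.00264). The genes called over the whole table, in either direction, then numbered 1566, against 241 of 13438 (1.79%) with it. The 4 members called, all lower, stand beside that larger total and not beside the 1.79%. The split of the 1566 genes by direction is not given here, so the 4 members are not weighed against a share of genes called lower. With mouse number as a block, Fos (-0.98, adjusted p = 0.0358) and Egr1 (-3.38, adjusted p = 0.0215) were past the threshold, Junb and Klf6 were not, and 535 genes were called in all. Without mouse 1 in all groups Junb and Klf6 were past it (adjusted p = 0.0221 and 0.0214), and Egr1 was when SR9009 mouse 2 was left out (adjusted p = 0.0348).

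The remaining members were not called under any of the 31 other settings tried. Fosl2 had 26.1, 36.9, 98.2 and 113 CPM in SR9009 and LPS libraries, against 73.2, 117, 156 and 151 CPM in LPS libraries. It was lower in 4 of 4 mice, but the groups overlapped and the log2 fold change was -0.86 (SE 0.45, adjusted p = 0.434). Jun had 106, 136, 66.1 and 79.9 CPM with SR9009 and LPS, against 188, 166, 101 and 100.3 CPM with LPS, also lower in 4 of 4 mice (log2 fold change -0.52, SE 0.42, adjusted p = 0.674).

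Klf4 was above its LPS level in 4 of 4 mice, as was no other member. It had 38.0, 45.1, 5.07 and 4.74 CPM in SR9009 and LPS libraries, against 20.3, 11.9, 1.97 and 3.50 CPM in LPS libraries. In both groups mice 1 and 2 were several-fold above mice 3 and 4, so the groups overlapped, and the log2 fold change was 1.31 (SE 0.70, adjusted p = 0.447). Klf2 had 37.5, 51.4, 20.4 and 27.7 CPM with SR9009 and LPS, against 38.7, 39.1, 15.4 and 15.0 CPM with LPS (log2 fold change 0.34, adjusted p = 0.781). Maff had 1.88, 4.18, 17.4 and 20.0 CPM with SR9009 and LPS, against 4.99, 6.32, 17.3 and 11.6 CPM with LPS, lower in 2 mice and higher in 2 (log2 fold change 0.11, adjusted p = 0.980). Egr2 had 0.294, 0.295, 2.56 and 3.73 CPM with SR9009 and LPS, against 0.333, 1.60, 3.39 and 2.00 CPM with LPS (log2 fold change -0.10, adjusted p = 0.982).

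**Figure D3:**
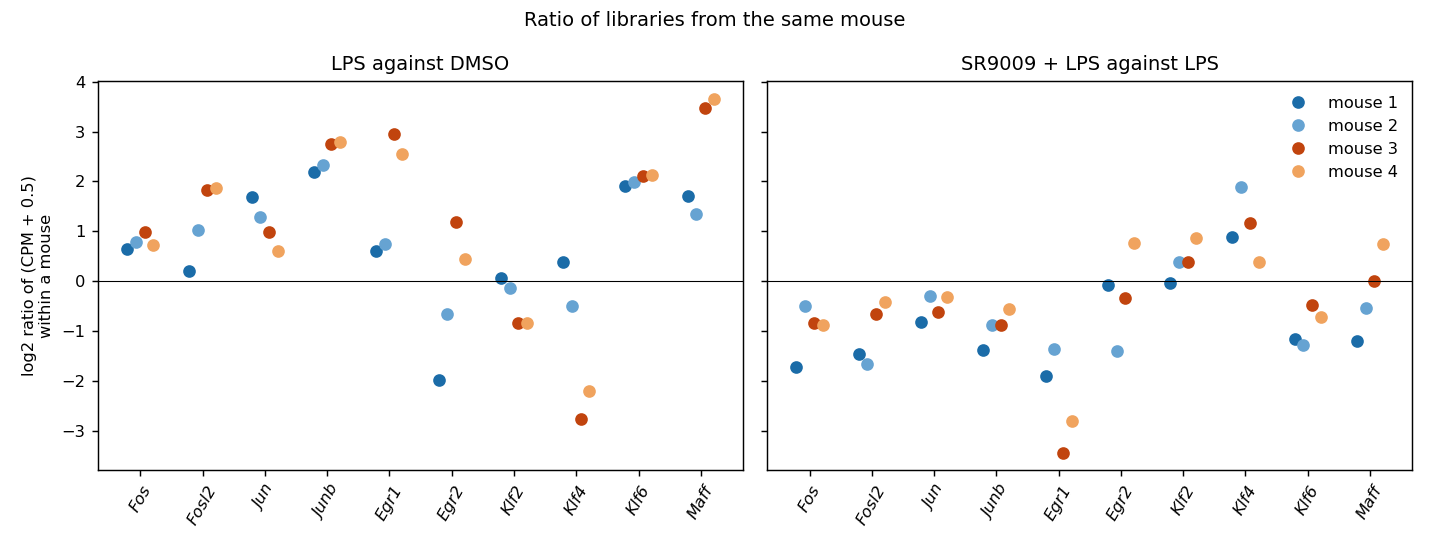
Log2 ratio of CPM + 0.5 of each member within each of the 4 mice, for LPS against DMSO and for SR9009 and LPS against LPS, with 1 point per mouse. Fos, Fosl2, Jun, Junb, Egr1 and Klf6 lie below 0 in 4 of 4 mice in SR9009 and LPS against LPS, and the ratios of Klf4 in LPS against DMSO run from -2.76 to 0.39.

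Among the related genes 2 were called in SR9009 and LPS versus LPS, both lower. Maf, a large MAF factor that controls Il10 in macrophages, averaged 463 ± 147 CPM in SR9009 and LPS cells and 1038 ± 249 CPM in LPS cells (log2 fold change -1.16, SE 0.28, adjusted p = 0.0414). Btg2, an antiproliferative immediate early gene, averaged 49.0 ± 4.44 CPM in SR9009 and LPS cells and 85.9 ± 12.4 CPM in LPS cells (-0.81, SE 0.19, adjusted p = 0.0445). Each of these calls held in 4 of 20 fits that left out a mouse or a library, the Maf call without mouse 1, the SR9009 library of mouse 1 or 2 or the SR9009 and LPS library of mouse 2, and the Btg2 call without mouse 1, the LPS library of mouse 1 or the SR9009 library of mouse 1 or 2. In the other 16 the adjusted p ran up to 0.289 for Maf and 0.401 for Btg2. In the list of Btg2, Zfp36 (-1.05, adjusted p = 0.166) and Ier2 (-1.60, adjusted p = 0.188) did not pass. Among the other KLF genes, 0 of 8 were called with edgeR (2 at an unadjusted p under 0.05, 2 with DESeq2, 0 with limma-voom), with Klf3 at -0.74 and Klf9 at 2.25 on the log2 scale (adjusted p = 0.110 for both). The counts called were likewise 0 of 8 other AP-1 genes (1 at an unadjusted p under 0.05, 0 with DESeq2 and limma-voom), 0 of 3 EGR and NAB genes (0 by each of these) and 0 of 20 upstream genes (3 unadjusted, 1 with DESeq2, 0 with limma-voom). Batf2 (-1.21, adjusted p = 0.278), Map2k1 (-0.57, adjusted p = 0.119) and Map3k8 (-0.69, adjusted p = 0.146) had the smallest p of their lists or the next. When the SR9009 library of mouse 1 was left out, 2 other AP-1 genes (Batf and Batf2) and 2 upstream genes (Map2k1 and Map3k8) were called lower, Klf3 lower and Klf9 higher, and among immediate early genes Btg2, Zfp36 and Ier2 lower and Rgs1 higher, with 0 called of the EGR and NAB list.

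The third comparison sets SR9009 against DMSO in cells without LPS. With edgeR's test 0 of the 10 members passed the threshold, against 0.878% of all tested genes, 0.313% called higher and 0.566% lower. Fos and Egr1, 2 members and both lower, had an unadjusted p under 0.05; DESeq2 called 1, Fos (adjusted p = 0.0337), and limma-voom 0. The median log2 fold change was -0.02 over the members and 0.01 over all genes. Fos was the 1 member whose groups did not overlap, against 4.64% of tested genes not overlapping and lower and 4.90% not overlapping and higher.

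Fos had 17.2, 33.9, 18.9 and 21.4 CPM in SR9009 libraries, against 42.6, 40.5, 37.4 and 46.0 CPM in DMSO libraries. It was lower in 4 of 4 mice, least so in mouse 2, and the log2 fold change was -0.86 (SE 0.26, adjusted p = 0.193), close to the -0.92 in SR9009 and LPS versus LPS. Leaving out the SR9009 library of mouse 1 gave -0.79 (adjusted p = 0.175). Egr1 had 0, 1.17, 0.0805 and 0.169 CPM in SR9009 libraries, against 2.00, 2.81, 0.602 and 0.723 CPM in DMSO libraries. The library at 0 counts allows up to 0.209 CPM (3 counts, counting error only), and the groups overlapped through mouse 2 (log2 fold change -2.00, SE 0.83, adjusted p = 0.384, and -1.70 without the library at 0).

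For Junb, Jun and Klf6 the SR9009 library of mouse 1 set the spread. Junb had 2.93, 101, 99.5 and 77.2 CPM in SR9009 libraries, against 105, 127, 94.3 and 93.9 CPM in DMSO libraries (log2 fold change -0.58, adjusted p = 0.746, and -0.23 without that library). Jun had 15.9, 56.0, 95.6 and 104 CPM in SR9009 libraries, against 57.8, 67.4, 50.6 and 65.6 CPM in DMSO libraries (0.17, adjusted p = 0.890, and 0.45 without it). Klf6 had 477, 225, 262 and 251 CPM in SR9009 libraries, against 245, 244, 210.4 and 217 CPM in DMSO libraries. That library was the lowest for Junb and Jun and the highest for Klf6, whose log2 fold change was 0.41 (SE 0.24, adjusted p = 0.516) with it and 0.06 without it.

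Fosl2 had 19.2, 77.3, 43.8 and 48.8 CPM in SR9009 libraries, against 63.4, 56.9, 43.7 and 41.2 CPM in DMSO libraries (log2 fold change -0.12, adjusted p = 0.933, and 0.10 without the SR9009 library of mouse 1). Maff had 0.488, 2.96, 1.29 and 1.83 CPM in SR9009 libraries, against 1.18, 2.19, 1.10 and 0.460 CPM in DMSO libraries (0.44, adjusted p = 0.836, and 0.69 without that library). Both overlapped. Klf2 had 17.1, 37.7, 25.3 and 30.7 CPM in SR9009 libraries, against 37.0, 43.1, 27.9 and 27.3 CPM in DMSO libraries (-0.29, adjusted p = 0.798). Klf4 had 16.7, 20.3, 16.6 and 20.1 CPM in SR9009 libraries, against 15.4, 17.1, 16.2 and 18.0 CPM in DMSO libraries (0.14, adjusted p = 0.946), a small difference that was positive in 4 of 4 mice. Egr2 had 1.60, 2.96, 2.13 and 1.86 CPM in SR9009 libraries, against 2.78, 2.81, 1.20 and 1.35 CPM in DMSO libraries (0.08, adjusted p = 0.969).

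Of the related lists, 2 immediate early genes were called with SR9009 alone. Rgs1, a regulator of G protein signalling, averaged 19.6 ± 9.43 CPM in SR9009 cells and 5.86 ± 0.925 CPM in DMSO cells (log2 fold change 1.74, SE 0.33, adjusted p = 0.0194), and Btg2 averaged 34.9 ± 8.99 and 69.1 ± 7.87 CPM (-0.99, SE 0.20, adjusted p = 0.0253). Leaving out the SR9009 library of mouse 1 gave 1.30 for Rgs1 (adjusted p = 0.0169) and -0.90 for Btg2 (adjusted p = 0.00699). The Rgs1 call ended without mouse 2, 3 or 4 or the DMSO library of mouse 1, 2 or 3 (adjusted p up to 0.190), and the Btg2 call without mouse 2, 3 or 4, the DMSO library of mouse 1 or 2 or the SR9009 library of mouse 3 or 4 (up to 0.371). In the AP-1, EGR and NAB, KLF, MAF and upstream lists edgeR called 0; at an unadjusted p under 0.05 they held 1, 1, 2, 0 and 1 genes in that order, and DESeq2 and limma-voom called 0 in each.

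The fourth comparison, SR9009 and LPS against SR9009, gives the LPS response in cells that had SR9009. With edgeR's test 4 members rose (Fos, Junb, Klf6 and Maff) and none fell, against 14.5% of tested genes called higher and 15.8% lower, 30.3% in all. DESeq2 called 4 and limma-voom 3. The median log2 fold change was 0.63 over the members and -0.12 over all genes. Junb was the 1 member whose groups did not overlap, against 13.9% of tested genes not overlapping and higher and 13.4% not overlapping and lower.

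Junb, at 185, 349, 344 and 442 CPM in SR9009 and LPS libraries against 2.93, 101, 99.5 and 77.2 CPM in SR9009 libraries, had a log2 increase of 2.23 (SE 0.62, adjusted p = 0.0123), which was 1.89 when the SR9009 library of mouse 1 was left out (adjusted p = 1.77e-05). Maff rose by 2.70 (SE 0.72, adjusted p = 0.00976), with 17.4 and 20.0 CPM in the SR9009 and LPS libraries of mice 3 and 4, against 1.29 and 1.83 CPM in their SR9009 libraries. With the SR9009 library of mouse 1 left out the increase was 2.47 (adjusted p = 0.0151). Klf6 rose by 0.75 (SE 0.24, adjusted p = 0.0248), and by 1.11 without that library (adjusted p = 6.94e-05). Fos rose by 0.73 (SE 0.26, adjusted p = 0.0437). Jun (0.52, adjusted p = 0.386, and 0.25 without that library), Fosl2 (0.53, adjusted p = 0.405, and 0.33 without it) and Egr1 (0.98, adjusted p = 0.421, and 0.70 without it) did not pass, nor did Klf2 (0.31), Klf4 (0.33) and Egr2 (-0.32).

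The Fos call held in 11 of 31 other settings. It ended without mouse 2, 3 or 4, any DMSO or LPS library, the SR9009 library of mouse 3 or 4, or the SR9009 and LPS library of mouse 2, 3 or 4 (adjusted p up to 0.252). Leaving out mouse 2, 3 or 4 also ended the Klf6 and Junb calls and leaving out mouse 3 or 4 the Maff call (adjusted p = 0.0608 to 0.0975 for Junb and 0.0867 to 0.0983 for Maff); for Klf6, so did leaving out the SR9009 library of mouse 2, 3 or 4 or the SR9009 and LPS library of mouse 3 or 4 (adjusted p = 0.0622 to 0.234). Egr1 was past the threshold when SR9009 mouse 2 was left out (adjusted p = 0.0212).

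LPS after SR9009 also changed genes of the related lists, beside 14.5% of all tested genes called higher and 15.8% lower. Among other AP-1 genes 3 of 8 rose and 0 fell: Atf3 by 2.41, Batf2 by 4.51 and Batf by 3.93 on the log2 scale. Nab2 rose by 1.88 (adjusted p = 0.0103). Of the other KLF genes 3 of 8 rose (Klf7 by 1.79, Klf8 by 1.13 and Klf3 by 0.91) and Klf9 fell by 2.64. Mafk rose by 1.38. Of the immediate early genes 3 of 12 rose, Zfp36 by 3.70 and Ier3 by 2.61 among them, and of the upstream genes 4 of 20 rose and 3 fell, with Mapkapk2, the kinase downstream of p38, higher by 3.10 and Map2k6 lower by 4.00. Without the SR9009 library of mouse 1 Klf9 fell by 1.62. Calls ended without mouse 3 or 4 for Nab2 (adjusted p up to 0.0874) and Klf3 (up to 0.0922), without mouse 2 for Klf8 (0.0787) and Mafk (0.119), and without mouse 2, 3 or 4 or the SR9009 and LPS library of mouse 4 for Ier3 (up to 0.134).

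The difference between the SR9009 effect with LPS and that without it was tested as an interaction, and 0 of the 10 members passed with edgeR, against 0.00744% of tested genes (1 gene). At an unadjusted p under 0.05 there was 1 member, Klf6; DESeq2 called 1, Klf6 (adjusted p = 0.0467), and limma-voom 0. For Klf6 the interaction was -1.28 on the log2 scale (SE 0.33, adjusted p = 0.263): the SR9009 effect was -0.88 with LPS and 0.41 without it. Without the SR9009 library of mouse 1 it was -0.90 (adjusted p = 0.0732), the effect without LPS being 0.06. The other members ran from -0.93 (Egr1, SE 1.16) to 1.16 (Klf4, SE 0.98), and that of Fos was -0.06 (SE 0.36). Without that library the values of Egr1, Jun and Junb were -1.20, -0.94 and -0.61. In the 6 related lists edgeR, DESeq2 and limma-voom all called 0; at an unadjusted p under 0.05 they held 0 other AP-1, 1 EGR and NAB, 3 other KLF, 1 other MAF, 1 immediate early and 2 upstream genes.

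The make-up of the Jun genes differed between groups. As a share of the summed FPKM of Jun, Junb and Jund, Junb made up 62.8% ± 6.02 in SR9009 and LPS cells, 73.5% ± 5.97 in LPS cells, 35.2% ± 14.1 in SR9009 cells and 53.4% ± 1.44 in DMSO cells (SD, n = 4 each). Every LPS library (66.4% to 79.4%) was above every DMSO library (52.2% to 55.5%). Jund, a Jun gene that is usually expressed constitutively, made up 22.7% ± 1.02, 14.1% ± 1.75, 29.3% ± 5.43 and 24.3% ± 3.19 in the same groups, and the ranges of SR9009 and LPS libraries (21.3% to 23.7%) and LPS libraries (11.8% to 15.9%) did not overlap. The level of Jund itself was close in these groups, at 50.9 ± 14.1 FPKM in SR9009 and LPS cells and 50.5 ± 9.18 FPKM in LPS cells, while the mean of Junb was lower with SR9009. Without LPS, Jund averaged 20.5 ± 13.2 FPKM in SR9009 cells and 20.5 ± 5.50 FPKM in DMSO cells. Its log2 fold change with edgeR's test was 1.25 in LPS versus DMSO (SE 0.50, adjusted p = 0.0579). In SR9009 and LPS versus SR9009 it was 1.23 (SE 0.50, adjusted p = 0.0746), so neither passed the threshold. Jun itself made up 14.5% ± 6.78, 12.4% ± 4.68, 35.5% ± 16.4 and 22.3% ± 2.97. Over the 3 SR9009 libraries other than that of mouse 1, Junb made up 42.1% ± 3.64, Jun 28.3% ± 9.62 and Jund 29.6% ± 6.6.

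The ratio of Junb to Jun in FPKM was 2.41, 3.56, 7.21 and 7.67 in the SR9009 and LPS libraries of mice 1 to 4, against 3.55, 5.35, 8.71 and 9.04 in their LPS libraries. It was 0.255, 2.51, 1.44 and 1.03 in SR9009 libraries, against 2.52, 2.62, 2.58 and 1.98 in DMSO libraries. The ratio was lower with SR9009 in 4 of 4 mice in both pairs of groups, and under LPS it was higher in mice 3 and 4 than in mice 1 and 2. These shares and ratios were not tested. Among the Fos genes, Fos made up 70.7% ± 11.4 in SR9009 and LPS cells, 70.6% ± 5.75 in LPS cells, 67.4% ± 7.11 in SR9009 cells and 76.8% ± 3.89 in DMSO cells, and Fosl2 nearly all of the rest, with Fosb and Fosl1 under 1% in every library.

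**Figure D4:**
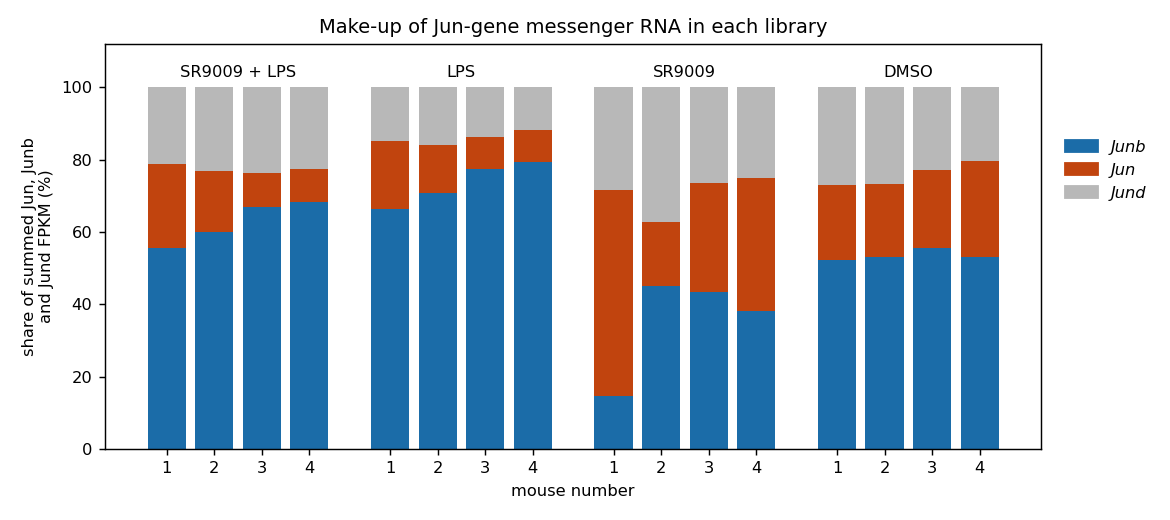
Share of Jun, Junb and Jund in their summed FPKM, in percent, for every library by group and mouse. Junb holds the largest share in all LPS (66.4% to 79.4%), all SR9009 and LPS (55.6% to 68.4%) and all DMSO libraries (52.2% to 55.5%). Its share is 14.6% in the SR9009 library of mouse 1.

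After the group means were subtracted, some members varied together from mouse to mouse. These are Pearson correlations of log2 CPM over the 15 libraries other than the SR9009 library of mouse 1; the libraries share mice, so they are a description. Fosl2 and Maff (r = 0.95), Fosl2 and Egr2 (0.94) and Egr2 and Maff (0.90) were high in the same libraries. Klf4 ran with Klf2 (0.84) and Jun (0.78) and against Egr2 (-0.90), Maff (-0.86) and Fosl2 (-0.85). The r of Jun and Junb was -0.34 without that library and 0.75 with it, a value set by 1 library.

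**Figure D5:**
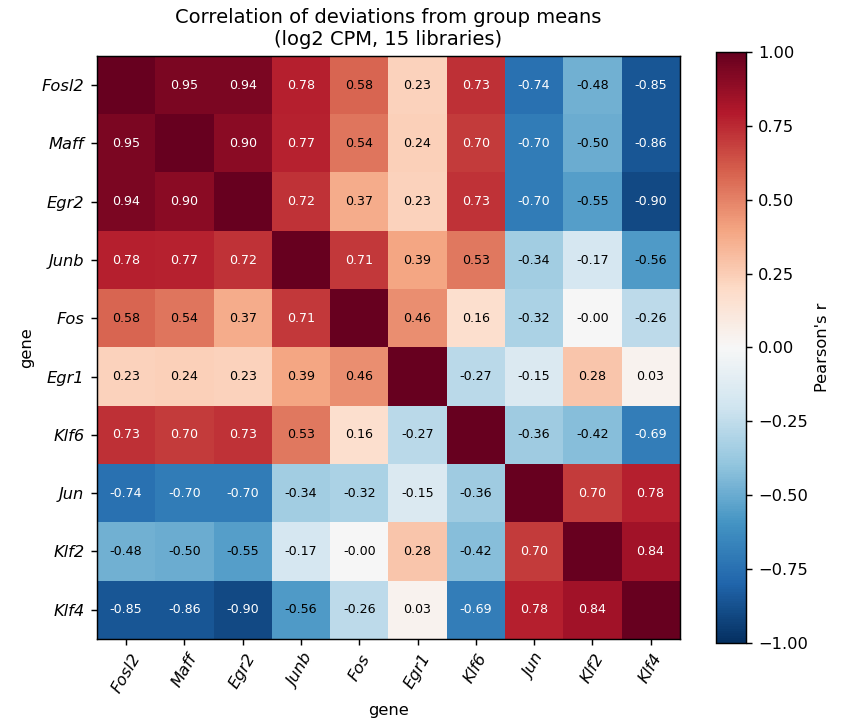
Pearson r between members of log2 CPM after subtraction of group means, over the 15 libraries other than the SR9009 library of mouse 1, from -1 to 1. Fosl2, Egr2 and Maff form a block with r of 0.90 to 0.95, and Klf4 is negative against each of them.

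The genes whose log2 CPM was most like a member over the 16 libraries were sought among the 9387 protein-coding genes that averaged 5 CPM or more. Junb was closest to Slc39a1 (r = 0.995 over all 16 and 0.987 over the 15 that leave out SR9009 mouse 1), a zinc transporter gene, and Klf6 to Gtf2a1 (0.983 and 0.983), which encodes a subunit of the general factor TFIIA. Fosl2 was closest to Sh2b2 (0.975 and 0.967), Klf4 to Maml3 (0.963 and 0.965), Jun to Rptor (0.960 and 0.913) and Maff to Cxcl2 (0.956 and 0.956), a neutrophil chemokine gene. The closest to Klf2 was Pacs1 (0.936 and 0.927), to Fos Pilrb1 (0.913 and 0.891) and to Egr1 Btg2 (0.906 and 0.902). These r values include the differences between groups.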

How the data were processed

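Poly(A) RNA of 16 macrophage cultures was sequenced, per the labels' protocols. Reads went through HISAT2 on build GRCm39 (mm39), per the submitters' processing notes; its version, the counter, the annotation release and the strand setting are not given there. The deposited table holds raw counts per gene, per the file headers, with gene identifiers, names, coordinates and lengths. FPKM values were deposited separately for each library, scaled to gene length and library size by the authors, per the file headers. FPKM was used to compare levels between genes and as an alternative unit.

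The 10 genes and the 6 lists of related genes were chosen with earlier results of these data known, as were the tests. Named are all 10 members, at most 4 genes with the smallest p per list and comparison, and the gene most like each member. Some genes that this rule names are left out of the text, and Map2k4, which it does not name, was added beside Map2k1 and Map2k6. The tools were edgeR 4.0.16, DESeq2 1.42.0 and limma 3.58.1 in R 4.3.3, with pandas 2.3.3, matplotlib 3.10.9 and numpy 2.4.6 in Python 3.11.15. Genes were filtered with filterByExpr (minimum count 10, minimum total 15), which left 13438, and libraries were scaled with TMM factors (0.738 to 1.26). All 16 libraries entered 1 edgeR quasi-likelihood fit (robust, a mean per group), and p-values were adjusted by Benjamini-Hochberg over all 13438 genes (threshold 0.05). An SE is the absolute log2 fold change over the root of F. The step was tested on simulated data with known changes. CPM uses TMM-scaled library sizes. Errors are SD over 4 libraries, which come from separate mice, so p-values measure the spread between cultures of 4 mice.

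The labels give the same 4 mice in each group. Deviations from group means of same-mouse libraries correlated at 0.0604 to 0.623 (24 pairs, median 0.287), against a median of -0.0835 over 72 pairs from different mice. The fit with mouse as a block is printed where it changes a call. Alternatives were RLE and upper-quartile scaling, DESeq2, limma-voom, log2 FPKM in limma (pseudocount 1 or 0.1), no filter or a stricter one (1 CPM in 4 libraries), the replicate block, the compared groups without the others, and omission of each mouse and of each library. The block without the SR9009 library of mouse 1 was added after seeing the data, as were the fits of the related lists with mice or libraries left out. Promoters came from RefSeq (GRCm38.p6); their coordinates are not those of the gene table.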

Additional observations from a re-analysis of the deposited data

Results flagged for a closer look

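In groups of 4 libraries, a library was marked where its gap to the nearest other library, divided by the range of its group, was above Dixon's critical value for 4 values. Of 40 sets (10 members in 4 groups) 3 were marked, and chance marks about 1 in 20. Junb in the LPS library of mouse 1 was the lowest of its group at 482 CPM, against 636 to 654 CPM in the other LPS libraries (gap over range 0.893). Egr1 in the SR9009 library of mouse 2 was the highest of its group at 1.17 CPM, against 0 to 0.169 CPM in the others (0.855). Klf6 in the SR9009 library of mouse 1 was the highest of its group at 477 CPM, against 225 to 262 CPM in the others (0.853).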

How the results depend on the processing

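Over all alternatives and members, 1362 values kept their direction and side of the threshold, 70 fell short of it, 39 newly passed it and 68 changed sign. None of the sign changes came with RLE or upper-quartile scaling or the stricter filter. The cause of these changes was not tested. The replicate block changed no member's call other than those of Fosl2 and Egr1 in LPS versus DMSO and of Fos and Egr1 in SR9009 and LPS versus LPS. For LPS versus DMSO, 6 members were called, 3 with upper-quartile scaling, 4 with no filter, and 7 with DESeq2, with log2 FPKM at either pseudocount and with the compared groups alone. For SR9009 versus DMSO, where 0 members and 118 genes were called, DESeq2 gave 1 member and 331 genes, the replicate block 198 genes and the compared groups alone 4 genes. For SR9009 and LPS versus LPS, with 0 members and 241 genes, the members called were 3 with DESeq2, 1 with limma-voom, 3 and 2 with log2 FPKM (pseudocount 1 and 0.1), 2 with the replicate block and 2 with the compared groups alone, and the genes called were 149 with no filter, 706 with DESeq2, 535 with the block and 486 with the compared groups alone. For SR9009 and LPS versus SR9009, with 4 members and 4070 genes, upper-quartile scaling gave 2 members and the compared groups alone 0 members and 2113 genes. For the interaction, with 0 members and 1 gene, DESeq2 gave 1 member and 103 genes, limma-voom 0 genes, log2 FPKM 52 and 12 genes (pseudocount 1 and 0.1) and the block 15 genes. The replicate block without the SR9009 library of mouse 1, added after seeing the data, called 8847, 586, 2900, 6845 and 271 genes in the 5 comparisons in this order, and 4 members in SR9009 and LPS versus LPS.

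Leaving out 1 mouse or 1 library gave 2 to 7 members and 3506 to 7835 genes for LPS versus DMSO, 0 members and 1 to 242 genes for SR9009 versus DMSO, 0 to 4 members and 5 to 1566 genes for SR9009 and LPS versus LPS, 0 to 4 members and 2430 to 5935 genes for SR9009 and LPS versus SR9009, and 0 members and 0 to 41 genes for the interaction.

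Sign changes concerned members without a call. With limma-voom, log2(FPKM + 1) and log2(FPKM + 0.1), Jun in SR9009 versus DMSO was at -0.10, -0.13 and -0.16, Maff in SR9009 and LPS versus LPS at -0.33, -0.14 and -0.29, Klf4 in SR9009 and LPS versus SR9009 at -0.37, -0.14 and -0.29, and the interaction of Junb at 0.38, 0.30 and 0.47. With the replicate block, Egr2 in SR9009 versus DMSO was at -0.072 (-0.16 without the SR9009 library of mouse 1 as well), Maff in SR9009 and LPS versus LPS at -0.056 (-0.0062), and Klf4 in SR9009 and LPS versus SR9009 at -0.25 (-0.51). The interaction of Egr2 was 0.038 with the block and without that library, and that of Fos 0.023 with no filter. Leave-one-out values ran through 0 for Egr2 in LPS versus DMSO (-0.80 to 0.37), SR9009 versus DMSO (-0.12 to 0.34), SR9009 and LPS versus LPS (-0.81 to 0.39), SR9009 and LPS versus SR9009 (-1.09 to 0.23) and the interaction (-0.88 to 0.31); for Maff in SR9009 versus DMSO (-0.0035 to 0.87), SR9009 and LPS versus LPS (-0.36 to 0.51) and the interaction (-0.80 to 0.11); for Fosl2 (-0.46 to 0.22) and Jun (-0.12 to 0.45) in SR9009 versus DMSO; for Klf4 in SR9009 and LPS versus SR9009 (-0.21 to 0.72); and for the interactions of Fos (-0.21 to 0.20) and Egr1 (-1.66 to 0.97). Low counts limit Egr1, Egr2 and Maff most, since Egr1 rests on 39 counts over the 4 SR9009 libraries.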
